A study of Homo sapiens with 6 samples.

Results

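The genes described here are a list of 49 symbols for entry into S phase and DNA replication, covering origin licensing, the replicative helicase, the polymerases and sliding clamp of the fork, nucleotide supply and the regulators of the G1/S transition. Membership is by name and uses no measured value or threshold, but the list was chosen with earlier results of these data known. Of the 49, 48 were found among the 20111 genes of the table, and all 48 passed the filter on low values that left 11690 genes for testing. UHRF1 was not analysed here. The 48 members were divided by function into 9 groups, from origin licensing to replication-coupled chromatin. RNA-seq was made from MDA-MB-231, a human breast cancer cell line called triple negative because it lacks the estrogen receptor, the progesterone receptor and amplified HER2. At 24 h and at 48 h after transfection, cells were harvested that had received a control siRNA (siControl), an siRNA reagent targeting NCOA3 (siNCOA3) or one targeting SHC1 (siSHC1). NCOA3 is a p160 coactivator of nuclear receptors, and SHC1 is an adaptor that couples receptor tyrosine kinases to RAS. There were 6 libraries, 1 for each siRNA and time, and all 6 came from transfected cells, so that transfection is common to every group. Each siRNA was therefore represented by its 2 times, and each time by its 3 siRNAs, in place of replicates. Separate cultures are not stated in the labels. The p-values reflect the scatter of these 6 libraries around an additive fit of siRNA and time. That scatter includes any response to an siRNA that differs between the times, and the rest could be technical scatter alone.

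Eukaryotic cells license their replication origins in G1, when the origin recognition complex, CDC6 and CDT1 load the MCM2-7 helicase onto DNA. At the start of S phase CDC45 and the GINS complex join the loaded helicase and activate it, and the polymerases, the sliding clamp PCNA and its loaders then copy the strands. Many of these genes are transcribed through E2F factors, which are held back by the retinoblastoma protein until cyclin D and cyclin E kinases phosphorylate it. Tumour lines that divide quickly hold high levels of this set of transcripts, and in a bulk library fewer cells in S phase and less RNA per cell cannot be told apart.

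Summed FPKM (fragments scaled by transcript length and library size) were 495518 to 553073 per library, and the scaling factors were 0.947 to 1.02. The read totals were not used here, but steps between low values put the other 5 libraries at 1.01 to 1.44 times the depth of siControl at 24 h, with siControl at 48 h the deepest. Both targets were low in their own libraries. NCOA3 was at 10.3 and 11.4 FPKM with siControl and at 1.72 and 1.85 with siNCOA3, and SHC1 was at 103 and 119 FPKM with siControl and at 14.7 and 15.5 with siSHC1. The 7 markers listed as high in the labelled cell line summed to 2641 to 2920 FPKM per library, with VIM at 887 to 1020 FPKM and CD44 at 473 to 596. The 6 hormone receptor and luminal markers were ESR1, PGR, ERBB2, GATA3, FOXA1 and CDH1. Of these PGR was listed at 0 and ESR1 reached 0.0922, but 2 of the 6 passed the filter on low values. Together the 6 summed to 31.8 to 41.2 FPKM per library. Of the markers of other cell types, PTPRC, CD3E and VWF stayed at or under 0.0549 FPKM and DCN was listed at 0, while COL1A1 rose after siSHC1 by 1.12 ± 0.12 (SE, limma adjusted p = 0.00776). The summed level of the 7 markers of other cell types was 57.6 and 70.2 FPKM with siControl, 74.3 and 69.4 with siNCOA3 and 60.8 and 62.6 with siSHC1, most of it CD68, and their part in the results below was not tested.

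After siSHC1, 6 of the 48 members fell and 0 rose. The 6 were CDCA7, a target of MYC and E2F that helps to maintain DNA methylation, the uracil glycosylase UNG, the GINS subunit GINS4, the ligase LIG1, the helicase subunit MCM6 and thymidylate synthase (TYMS). They make up 12.5% of the members, while 3.32% of all tested genes fell and 3.11% rose in the same comparison (limma, Benjamini-Hochberg adjusted p under 0.05 over all tested genes). The median fitted difference of the 48 was -0.16 on the scale of log2(scaled FPKM + 1), against 0.0035 for all tested genes, and 38 members lay below 0. Both siSHC1 libraries lay below both siControl libraries for 16 members, or 33.3%, against 23.9% of all tested genes, and above them for 1 member, TK1, against 24.1%. After siNCOA3 no member rose or fell by limma, where the background was 0.111% of tested genes lower and 0% higher. Both comparisons use the same 2 siControl libraries. The calls after siSHC1 rest on few libraries. The 6 falls did not hold without the siControl library of 24 h, nor without that of 48 h. Without the siSHC1 library of 48 h only CDCA7 of the 6 still fell, and CDC25A, which was not among the 6, was then called higher. Each of these fits leaves 1 library in a group, so a lost call there does not show that the difference itself was smaller. Without scaling 3 members fell, and with equal library totals 10 fell, while over all genes 388 fell and 363 rose in the scaled values against 497 and 209 with equal totals.

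**Figure D1:**
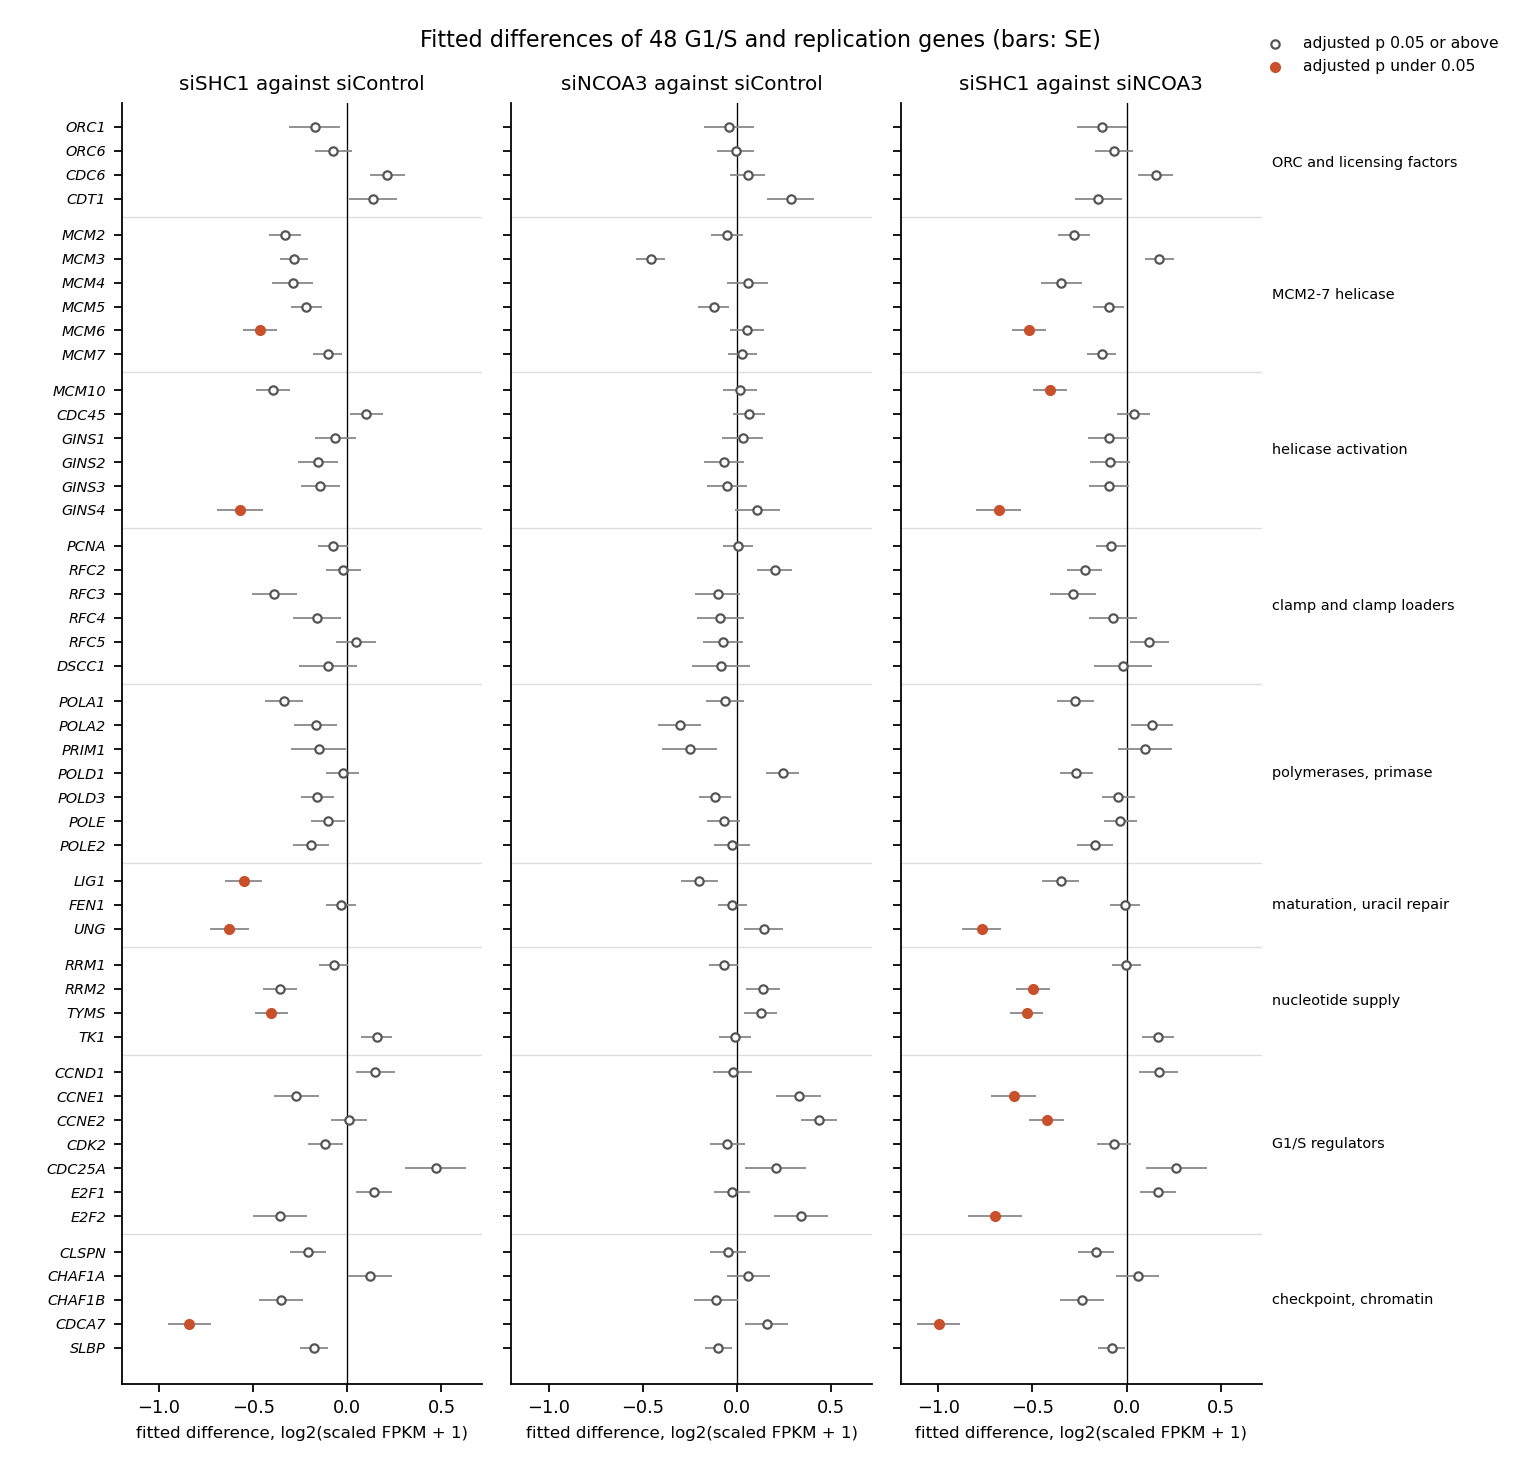
Fitted differences of the 48 members on the scale of log2(scaled FPKM + 1), with SE as bars, for siSHC1 against siControl (left), siNCOA3 against siControl (middle) and siSHC1 against siNCOA3 (right), grouped by function. Filled points passed an adjusted p of 0.05 (limma), 6 on the left, 0 in the middle and 10 on the right, and all of them lie below 0.

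CDCA7 had the lowest siSHC1 difference of the set. It was at 13.1 FPKM at 24 h and 12.3 at 48 h with siControl, at 15.5 and 14.1 with siNCOA3, and at 8.14 and 5.69 with siSHC1. Both siSHC1 libraries lay below all 4 others, at 58.2% of the scaled siControl level at 24 h and 47.2% at 48 h. The fitted fall was -0.84 ± 0.11 (SE, limma adjusted p = 0.0141, range over the alternatives 0.00893 to 0.118).

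**Figure D2:**
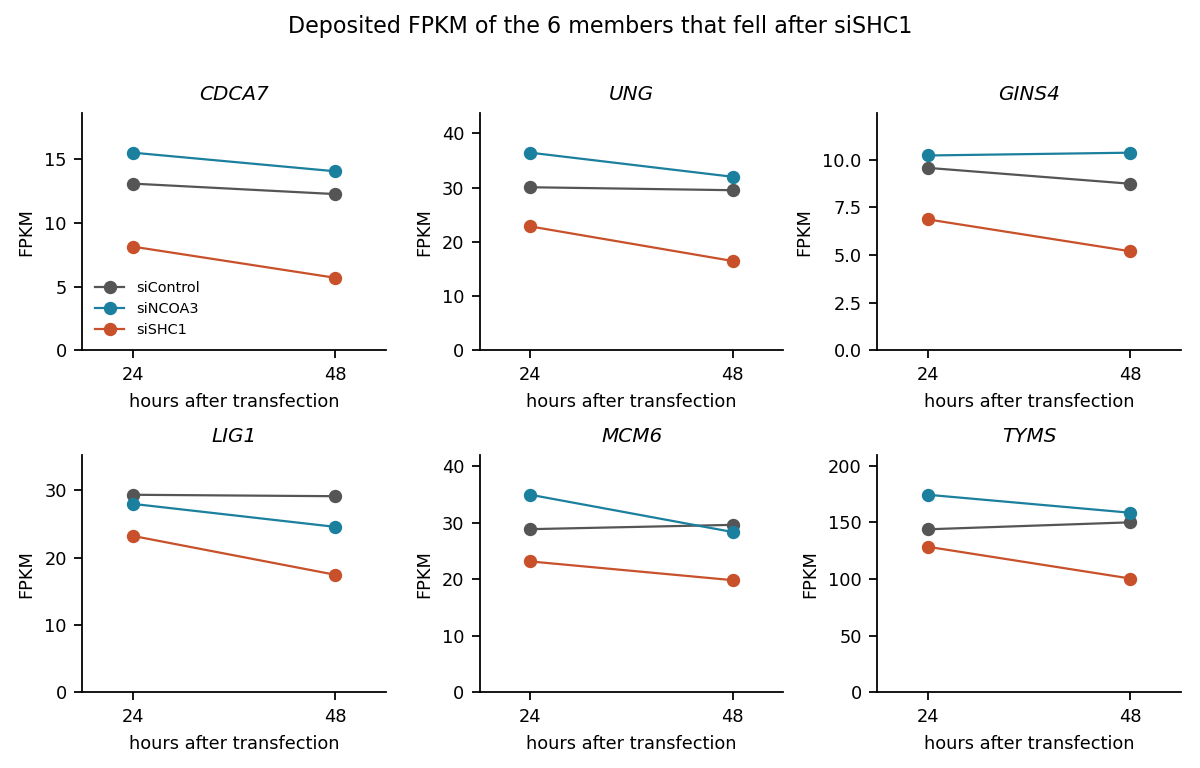
Deposited FPKM of the 6 members that fell after siSHC1, by hours after transfection, 1 point per library and 1 colour per siRNA, with vertical axes from 0. In every panel both siSHC1 points lie below the siControl and siNCOA3 points of the same time, and CDCA7 at 48 h stands at 5.69 FPKM against 12.3 with siControl.

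The promoters of these members are shown because replication genes are classically described by E2F words near their start. Promoter windows of RefSeq (GRCh38.p14, 250 bases before to 50 after a gene's start) were found for 40 of the 48 members, in 49 windows, and not for GINS4. They were searched on both strands for the E2F words TTTCGCGC, TTTGGCGC, TTTCCCGC and TTTGCCGC, with overlapping matches counted as 1 place. At least 1 window with such a word was found for 23 of the 40 members, or 57.5%, against 6.83% of the 8827 tested genes with a window and 3.99% of all 27305 genes, and 46.9% of member windows held one against 3.32% of all windows. The CCAAT word was found for 57.5% of members and 43.6% of tested genes. All 5 members that fell after siSHC1 and had a window held an E2F word, and so did 18 of the 35 others, among them E2F1 and CDC25A, which did not fall. The members' median siSHC1 difference was -0.19 with an E2F word and -0.07 without one, and from 24 h to 48 h it was -0.22 with and -0.25 without, so the median by time was not lower with the word. A match is a description of letters, not a bound site. The 250 bases before the start follow, 5′ to 3′ on the gene's strand, with the E2F places in capitals, for the 5 members that fell and for E2F1 and CDC25A as members that hold the word and did not fall. Positions of the first base of each place count back from -1, the base before the start.
CDCA7 (GRCh38.p14, chr2:173354622-173354871, plus strand): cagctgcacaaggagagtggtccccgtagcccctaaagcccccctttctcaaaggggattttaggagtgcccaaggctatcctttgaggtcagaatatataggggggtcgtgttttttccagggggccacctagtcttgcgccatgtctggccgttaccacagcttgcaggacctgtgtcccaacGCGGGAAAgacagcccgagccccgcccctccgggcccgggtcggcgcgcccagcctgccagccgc
UNG (GRCh38.p14, chr12:109097922-109098171, plus strand): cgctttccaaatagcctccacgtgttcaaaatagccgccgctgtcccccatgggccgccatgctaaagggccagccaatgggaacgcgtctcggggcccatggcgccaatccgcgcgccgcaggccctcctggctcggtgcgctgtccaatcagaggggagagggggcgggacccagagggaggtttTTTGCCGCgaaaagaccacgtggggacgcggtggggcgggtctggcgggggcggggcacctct
LIG1 (GRCh38.p14, chr19:48170345-48170594, minus strand): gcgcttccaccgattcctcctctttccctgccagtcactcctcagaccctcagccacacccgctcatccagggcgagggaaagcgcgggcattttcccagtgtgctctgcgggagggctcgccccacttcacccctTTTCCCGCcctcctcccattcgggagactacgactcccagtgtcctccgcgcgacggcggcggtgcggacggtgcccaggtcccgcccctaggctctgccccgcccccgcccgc
MCM6 (GRCh38.p14, chr2:135876444-135876693, minus strand): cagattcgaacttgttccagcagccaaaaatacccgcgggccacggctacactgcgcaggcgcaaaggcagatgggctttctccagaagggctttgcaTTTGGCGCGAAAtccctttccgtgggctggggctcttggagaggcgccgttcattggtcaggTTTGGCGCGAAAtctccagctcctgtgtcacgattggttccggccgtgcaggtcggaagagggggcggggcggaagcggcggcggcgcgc
TYMS (GRCh38.p14, chr18:657403-657652, plus strand): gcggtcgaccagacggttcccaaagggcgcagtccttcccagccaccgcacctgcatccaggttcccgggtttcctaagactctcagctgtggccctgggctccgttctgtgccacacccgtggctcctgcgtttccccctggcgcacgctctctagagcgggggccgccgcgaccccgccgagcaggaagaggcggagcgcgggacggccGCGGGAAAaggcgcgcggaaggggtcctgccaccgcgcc
E2F1 (GRCh38.p14, chr20:33686386-33686635, minus strand): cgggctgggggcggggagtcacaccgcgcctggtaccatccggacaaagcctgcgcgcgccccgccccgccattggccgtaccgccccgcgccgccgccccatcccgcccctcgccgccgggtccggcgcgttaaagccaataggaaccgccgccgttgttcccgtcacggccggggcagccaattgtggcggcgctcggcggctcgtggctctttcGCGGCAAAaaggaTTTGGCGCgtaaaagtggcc
CDC25A (GRCh38.p14, chr3:48188418-48188667, minus strand): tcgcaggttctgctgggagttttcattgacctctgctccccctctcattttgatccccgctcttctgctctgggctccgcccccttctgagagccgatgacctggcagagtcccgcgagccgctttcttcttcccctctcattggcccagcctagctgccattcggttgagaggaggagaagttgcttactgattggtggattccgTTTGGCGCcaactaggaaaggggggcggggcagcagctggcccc
In CDCA7 the place begins at -65, in LIG1 at -114, in TYMS at -39 and in the second window of UNG at -63, while the first window of UNG held none. MCM6 has places at -152 and -90, each made of overlapping words on both strands. E2F1 has places at -33 and -20, and CDC25A has 1 at -44.

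Origin licensing was covered by ORC1 and ORC6, subunits of the origin recognition complex, and by the loading factors CDC6 and CDT1. None of the 4 rose or fell after either siRNA, and their median differences were 0.03 after siSHC1 and 0.02 after siNCOA3. CDC6, the most abundant of them, was at 38.6 and 37.4 FPKM at 24 h and 48 h with siControl, at 44.6 and 37.6 with siNCOA3, and at 52.6 and 38.9 with siSHC1. The siSHC1 library of 24 h was the highest and that of 48 h lay among the others, for a fitted difference of 0.21 ± 0.09 (limma adjusted p = 0.206). CDT1 was at 18.6 and 17.8 FPKM with siControl, at 22.4 and 24.0 with siNCOA3, and at 23.7 and 17.9 with siSHC1. Both siNCOA3 libraries lay above both siControl libraries, at 111% and 136% of their scaled level, with a difference of 0.29 ± 0.13 that did not pass (limma adjusted p = 0.493). ORC1 was at 8.25 and 7.11 FPKM with siControl, at 8.05 and 7.31 with siNCOA3, and at 8.60 and 5.43 with siSHC1. Its siSHC1 libraries were at 97.4% of the scaled siControl level at 24 h and at 77.7% at 48 h, the lowest value of the 6.

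The 6 genes of the MCM2-7 helicase, the ring that unwinds DNA ahead of the fork, all lay below 0 after siSHC1, with a median of -0.29, and 1 of them, MCM6, fell. MCM6 was at 28.9 and 29.6 FPKM with siControl, at 35.0 and 28.4 with siNCOA3, and at 23.2 and 19.8 with siSHC1. Both siSHC1 libraries were below the other 4, at 75.0% and 68.2% of the scaled siControl level, a fall of -0.46 ± 0.09 (limma adjusted p = 0.0367, range over the alternatives 0.0264 to 0.187). MCM2 at -0.33 (limma adjusted p = 0.0705), MCM3 at -0.28 (0.0771), MCM4 at -0.29 (0.153), MCM5 at -0.22 (0.157) and MCM7 at -0.10 (0.439) did not pass. The median of the 6 was -0.17 at 24 h and -0.37 at 48 h, each from single libraries. MCM3, the most abundant subunit, had the lowest siNCOA3 difference of all 48 members. Its level was 112 and 115 FPKM with siControl, 93.0 and 78.7 with siNCOA3, and 103 and 88.8 with siSHC1. The siNCOA3 libraries stood at 76.6% and 68.8% of the scaled siControl level and below both siSHC1 libraries of the same times, with a difference of -0.46 ± 0.08 that did not pass (limma adjusted p = 0.163). MCM4 was at 70.5 and 69.5 FPKM with siControl, at 84.6 and 67.2 with siNCOA3, and at 71.3 and 47.9 with siSHC1. Its siSHC1 libraries were at 94.6% of the scaled siControl level at 24 h and at 70.1% at 48 h, and the latter was the lowest of the 6.

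Among MCM10, CDC45 and the 4 GINS subunits, which turn the loaded ring into an active helicase, 1 member fell after siSHC1. GINS4 was at 9.57 and 8.74 FPKM with siControl, at 10.2 and 10.4 with siNCOA3, and at 6.87 and 5.20 with siSHC1. The siSHC1 libraries lay apart from the other 4, at 67.1% and 60.6% of the scaled siControl level, and the fall was -0.57 ± 0.12 (limma adjusted p = 0.0441, range over the alternatives 0.0332 to 0.219). The other subunits GINS1, GINS2 and GINS3 had differences of -0.07, -0.16 and -0.14 and did not pass, although the 4 proteins form 1 complex. MCM10, which binds the helicase at activation, was at 17.5 and 15.7 FPKM with siControl, at 18.6 and 16.3 with siNCOA3, and at 14.1 and 11.4 with siSHC1. Both siSHC1 libraries were the lowest of the 6, and the difference from siControl was -0.39 ± 0.09 (limma adjusted p = 0.0528). CDC45 was at 19.5 and 17.8 FPKM with siControl, at 21.6 and 18.9 with siNCOA3, and at 22.6 and 18.7 with siSHC1, and its groups overlapped. GINS2 was at 13.4 and 9.94 FPKM with siControl, at 12.6 and 10.2 with siNCOA3, and at 11.8 and 9.40 with siSHC1, with every library of 48 h below every library of 24 h.

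PCNA, the ring that holds polymerases on DNA, and its loaders did not rise or fall after either siRNA in any of the 6 genes. PCNA was at 96.5 and 94.7 FPKM with siControl, at 112 and 88.1 with siNCOA3, and at 100.1 and 85.9 with siSHC1, with fitted differences of -0.08 after siSHC1 and 0.01 after siNCOA3. RFC3, a subunit of the clamp loader, was at 12.6 and 9.62 FPKM with siControl, at 11.6 and 9.61 with siNCOA3, and at 10.7 and 6.56 with siSHC1. Its siSHC1 library was the lowest at each time, but the siSHC1 value of 24 h lay above siControl at 48 h, and the difference of -0.39 ± 0.12 did not pass (limma adjusted p = 0.105). RFC2 was at 28.0 and 26.7 FPKM with siControl, at 34.3 and 31.1 with siNCOA3, and at 31.4 and 24.2 with siSHC1, so that both siNCOA3 values exceeded both siControl values without passing (0.20 ± 0.09, limma adjusted p = 0.517). DSCC1, part of the loader variant that works with sister chromatid cohesion, was at 8.97 and 5.05 FPKM with siControl, at 7.23 and 5.94 with siNCOA3, and at 7.46 and 5.46 with siSHC1. The siControl library was the highest of the 3 at 24 h and the lowest at 48 h.

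The 7 polymerase and primase genes all lay below 0 after siSHC1, with a median of -0.16 and none past the threshold. POLA1, the catalytic subunit of polymerase alpha that starts each strand, was at 11.9 and 10.8 FPKM with siControl, at 11.9 and 10.6 with siNCOA3, and at 10.2 and 7.99 with siSHC1. Both siSHC1 libraries were below the other 4, and the difference was -0.33 ± 0.10 (limma adjusted p = 0.0948). POLA2, its accessory subunit, was at 16.4 and 15.9 FPKM with siControl, at 16.2 and 10.9 with siNCOA3, and at 16.2 and 13.1 with siSHC1. Its siNCOA3 libraries were at 91.4% of the scaled siControl level at 24 h and at 69.6% at 48 h, the lowest of the 6, and the difference of -0.30 ± 0.11 did not pass (limma adjusted p = 0.422). PRIM1, the small primase subunit, was at 18.4 and 11.9 FPKM with siControl, at 13.5 and 12.1 with siNCOA3, and at 16.9 and 10.8 with siSHC1. By contrast its siNCOA3 value was the lowest at 24 h, and the 3 values of 48 h were close together. POLD1, the catalytic subunit of polymerase delta on the lagging strand, was at 32.4 and 34.3 FPKM with siControl, at 43.4 and 38.8 with siNCOA3, and at 36.6 and 30.9 with siSHC1, with both siNCOA3 libraries highest and a difference of 0.24 ± 0.09 that did not pass (limma adjusted p = 0.413).

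Of the 3 genes of strand maturation and uracil repair, 2 fell after siSHC1. UNG, which removes uracil from DNA, was at 30.1 and 29.5 FPKM with siControl, at 36.4 and 32.0 with siNCOA3, and at 22.8 and 16.5 with siSHC1. The siSHC1 libraries were the lowest 2 of the 6, at 71.0% and 56.8% of the scaled siControl level, and the fall was -0.63 ± 0.10 (limma adjusted p = 0.0240, range over the alternatives 0.0147 to 0.135). LIG1, which seals Okazaki fragments, was at 29.3 and 29.1 FPKM with siControl, at 28.0 and 24.6 with siNCOA3, and at 23.2 and 17.5 with siSHC1. It too was lowest in both siSHC1 libraries, at 74.0% and 61.0% of siControl, a fall of -0.55 ± 0.10 (limma adjusted p = 0.0294, range 0.0202 to 0.153). FEN1, the flap nuclease that acts just before LIG1, was at 67.8 and 58.4 FPKM with siControl, at 68.7 and 59.7 with siNCOA3, and at 70.0 and 56.6 with siSHC1. Its siSHC1 difference was -0.03 ± 0.08 (limma adjusted p = 0.823), so these neighbouring steps of the pathway had unlike values.

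The enzymes of nucleotide supply were abundant, from a mean of 52.2 FPKM for RRM1 to 143 for TYMS, and 1 of the 4 fell after siSHC1. TYMS, which makes thymidylate from deoxyuridylate, was at 144 and 150.0 FPKM with siControl, at 174 and 158 with siNCOA3, and at 128 and 100.4 with siSHC1. The siSHC1 libraries stood at 83.5% and 68.2% of siControl, and the fall was -0.40 ± 0.09 (limma adjusted p = 0.0465, range over the alternatives 0.0327 to 0.246). TYMS was the least stable of the 6 calls, lost under 10 of 15 alternatives, and its exons overlap those of ENOSF1 on the other strand, which lay at 10.3 to 13.8 FPKM. RRM2, the regulated subunit of ribonucleotide reductase, was at 109 and 93.4 FPKM with siControl, at 125 and 106 with siNCOA3, and at 96.9 and 67.0 with siSHC1, and its siSHC1 difference was -0.36 ± 0.09 (limma adjusted p = 0.0646). The salvage kinase TK1 differed in direction from these, at 88.2 and 92.0 FPKM with siControl, 97.5 and 87.8 with siNCOA3, and 99.7 and 106 with siSHC1. It was the member whose siSHC1 libraries both exceeded both siControl libraries, at 0.16 ± 0.08 (limma adjusted p = 0.287).

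The 7 G1/S regulators showed no common direction after siSHC1, with 3 below 0, 4 above and a median of 0.01, and none passed. Cyclin D1 (CCND1), which starts the phosphorylation of the retinoblastoma protein, had the highest mean level of all members at 226 FPKM. It was at 219 and 209.8 FPKM with siControl, at 211 and 227 with siNCOA3, and at 273 and 218 with siSHC1, with the siSHC1 library of 24 h apart from the other 5. CDC25A, the phosphatase that activates CDK2, was at 13.0 and 10.5 FPKM with siControl, at 14.6 and 13.6 with siNCOA3, and at 22.7 and 12.7 with siSHC1. The siSHC1 library of 24 h was the highest by far, at 163% of siControl, while the value of 48 h lay within the range of the others, and the difference of 0.47 ± 0.16 did not pass (limma adjusted p = 0.127, and 0.0496 without the siSHC1 library of 48 h). E2F1 was at 38.9 and 39.0 FPKM with siControl, at 41.4 and 37.8 with siNCOA3, and at 50.5 and 38.6 with siSHC1, which is again a high siSHC1 value at 24 h only.

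The cyclin E genes and E2F2 were higher with siNCOA3 than with siSHC1 in the fit over all 6 libraries. CCNE1, which activates CDK2 at the start of S phase, was at 11.4 and 8.77 FPKM with siControl, at 13.9 and 12.7 with siNCOA3, and at 9.82 and 7.04 with siSHC1. CCNE2, its paralog, was at 11.02 and 8.06 FPKM with siControl, at 16.2 and 11.4 with siNCOA3, and at 11.8 and 8.02 with siSHC1. E2F2, an activating E2F factor and the least abundant member, was at 2.49 and 2.96 FPKM with siControl, at 4.40 and 3.34 with siNCOA3, and at 2.10 and 1.81 with siSHC1. In all 3 genes the siNCOA3 library was the highest of its time. Against siControl, the siNCOA3 differences were 0.33 ± 0.12 for CCNE1 (limma adjusted p = 0.413), 0.43 ± 0.09 for CCNE2 (0.255) and 0.34 ± 0.14 for E2F2 (0.477), none of which passed. Between the knockdowns the 3 genes passed, but the calls were lost under 5 alternatives for CCNE1 (limma adjusted p up to 0.174), 9 for CCNE2 (up to 0.335) and 6 for E2F2 (up to 0.127), of 15 tried.

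The fork checkpoint and chromatin genes comprised CLSPN, the chromatin assembly subunits CHAF1A and CHAF1B, CDCA7 and SLBP, and CDCA7 was the 1 that fell. SLBP, which binds the stem-loop of histone mRNA, was the most abundant, at 72.1 and 71.3 FPKM with siControl, at 72.5 and 66.1 with siNCOA3, and at 68.3 and 61.5 with siSHC1, a difference of -0.18 ± 0.07 after siSHC1 (limma adjusted p = 0.182). CLSPN, the adaptor that passes the stalled-fork signal to CHK1, was at 21.1 and 17.1 FPKM with siControl, at 21.0 and 17.2 with siNCOA3, and at 20.1 and 13.9 with siSHC1. CHAF1A and CHAF1B, partners in the same assembly factor, had siSHC1 differences of 0.12 and -0.35 (limma adjusted p = 0.549 and 0.120).

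After siNCOA3 the members as a set did not move in 1 direction. Their median fitted difference was -0.02, against -0.0006 for all tested genes, with 27 below 0 and 21 above, and the median was 0.03 without scaling. In the unscaled values the members' median was 0.116 at 24 h and 0.007 at 48 h. That of all tested genes was 0.101 and -0.013. At an unadjusted p under 0.05 (limma), 2 members were lower, MCM3 and POLA2, or 4.17%, against 5.89% of all tested genes. By the same measure 4 were higher, POLD1, CCNE1, CCNE2 and E2F2, or 8.33%, against 4.60%. Both siNCOA3 libraries lay below both siControl libraries for 4 members, or 8.33%, against 19.3% of all tested genes. They lay above them for 7, or 14.6%, against 20.1%, so neither of these shares without overlap exceeded the background. MCM3 holds the word GTCAAGA in its 3′ UTR, as do CDT1, GINS1 and CCND1, whose siNCOA3 differences were 0.29, 0.03 and -0.02. That word had been chosen by the fold changes of these same libraries, which favours it, and it was found for 8.33% of members and 9.51% of tested genes (GENCODE v29, longest 3′ UTR). The word chosen in the same way for siSHC1, GCCCATC, was found for 4.17% of members, GINS4 and E2F2, and 8.997% of tested genes. The place in GINS4, the holder of GCCCATC that fell after siSHC1, is not shown. Those of MCM3 and E2F2 follow with 11 bases to each side and the word in capitals. MCM3 had the lowest siNCOA3 difference, and E2F2 had the lowest siSHC1 difference among the regulators but did not pass (-0.36, limma adjusted p = 0.175).
MCM3 (GRCh38, word at chr6:52264131-52264137, minus strand): acgtcatgcagGTCAAGAaagctttcttt
E2F2 (GRCh38, word at chr1:23509639-23509645, minus strand): ggcctagggagGCCCATCcagtcttctga
E2F2 (GRCh38, word at chr1:23509413-23509419, minus strand): tctgcagacagGCCCATCactgtccatgt

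The knockdowns were next compared with each other, with the same siSHC1 libraries as above. The siControl libraries do not enter the difference itself, but they share in the fit's scaling, time term and estimate of the spread. Of the 48 members, 10 were lower with siSHC1 than with siNCOA3 and 0 were higher, or 20.8% of the set, while 4.40% of all tested genes were lower and 5.35% higher (limma). Both siSHC1 libraries lay below both siNCOA3 libraries for 14 members, or 29.2%, which is near the 28.8% of all tested genes, and above them for 1, TK1, against 29.5%. CDCA7, UNG, GINS4, TYMS and MCM6 were among the 10 that passed, with differences of -0.998, -0.77, -0.68, -0.53 and -0.52. CDCA7 had the lowest adjusted p (0.00661 by limma). The other 5 were E2F2 at -0.70, CCNE1 at -0.60, RRM2 at -0.50, CCNE2 at -0.42 and MCM10 at -0.41, with limma adjusted p-values of 0.0219 to 0.0393. For CCNE2 the siSHC1 difference from siControl was 0.01, and its siNCOA3 difference was 0.43. LIG1, which fell against siControl, was at -0.35 and did not pass here (limma adjusted p = 0.0680). The 10 calls did not hold without the siNCOA3 library of 48 h. Some were also lost without its library of 24 h and without either siSHC1 library. In these fits a group is held by 1 library, so a lost call does not show that the difference itself was smaller.

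From 24 h to 48 h no member passed the test, yet the fitted difference of all 48 lay below 0, against 47.8% of all tested genes. The median was -0.22 for the members and 0.007 for all tested genes. At the adjusted threshold 0.00855% of tested genes were lower and 0.0171% higher, that is 1 and 2 genes (limma). At an unadjusted p under 0.05, 35 members were lower, or 72.9%, against 5.52% of all tested genes, and 0 were higher, against 8.68% (limma). All 3 libraries of 48 h lay below all 3 of 24 h for 25 members, or 52.1%, against 5.22% of tested genes, and above them for 0, against 5.36%. The 35 became 12, or 25.0% against 7.36% of all tested genes in either direction, when either siSHC1 library was left out (limma). Without scaling the 35 became 24, or 50% against 12.6% of all tested genes in either direction (limma).

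The difference by time was seen within each siRNA, where it rests on 1 library against 1 and has no test. With siControl 46 members were lower at 48 h, with a median of -0.17, with siNCOA3 45 were, with a median of -0.16, and with siSHC1 46 were, with a median of -0.30. Over all tested genes 49.2%, 47.8% and 47.6% were lower in the same 3 pairs. Without scaling the siControl count was 35 with a median of -0.06, where the median of all genes was 0.10, and the counts for the knockdowns stayed at 45 and 46. Relative to siControl at 24 h, depth was 1.44 for siControl at 48 h, 1.19 and 1.31 at 24 h and 48 h for siNCOA3, and 1.04 and 1.01 for siSHC1, and its part in the difference by time was not tested. Whether the siSHC1 decrease differs from the others was not tested, since an siRNA-by-time term leaves no residual degrees of freedom. The summed FPKM of the 48 members was 1899 and 1820.0 at 24 h and 48 h with siControl, 2032 and 1806 with siNCOA3, and 1954 and 1566 with siSHC1.

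**Figure D3:**
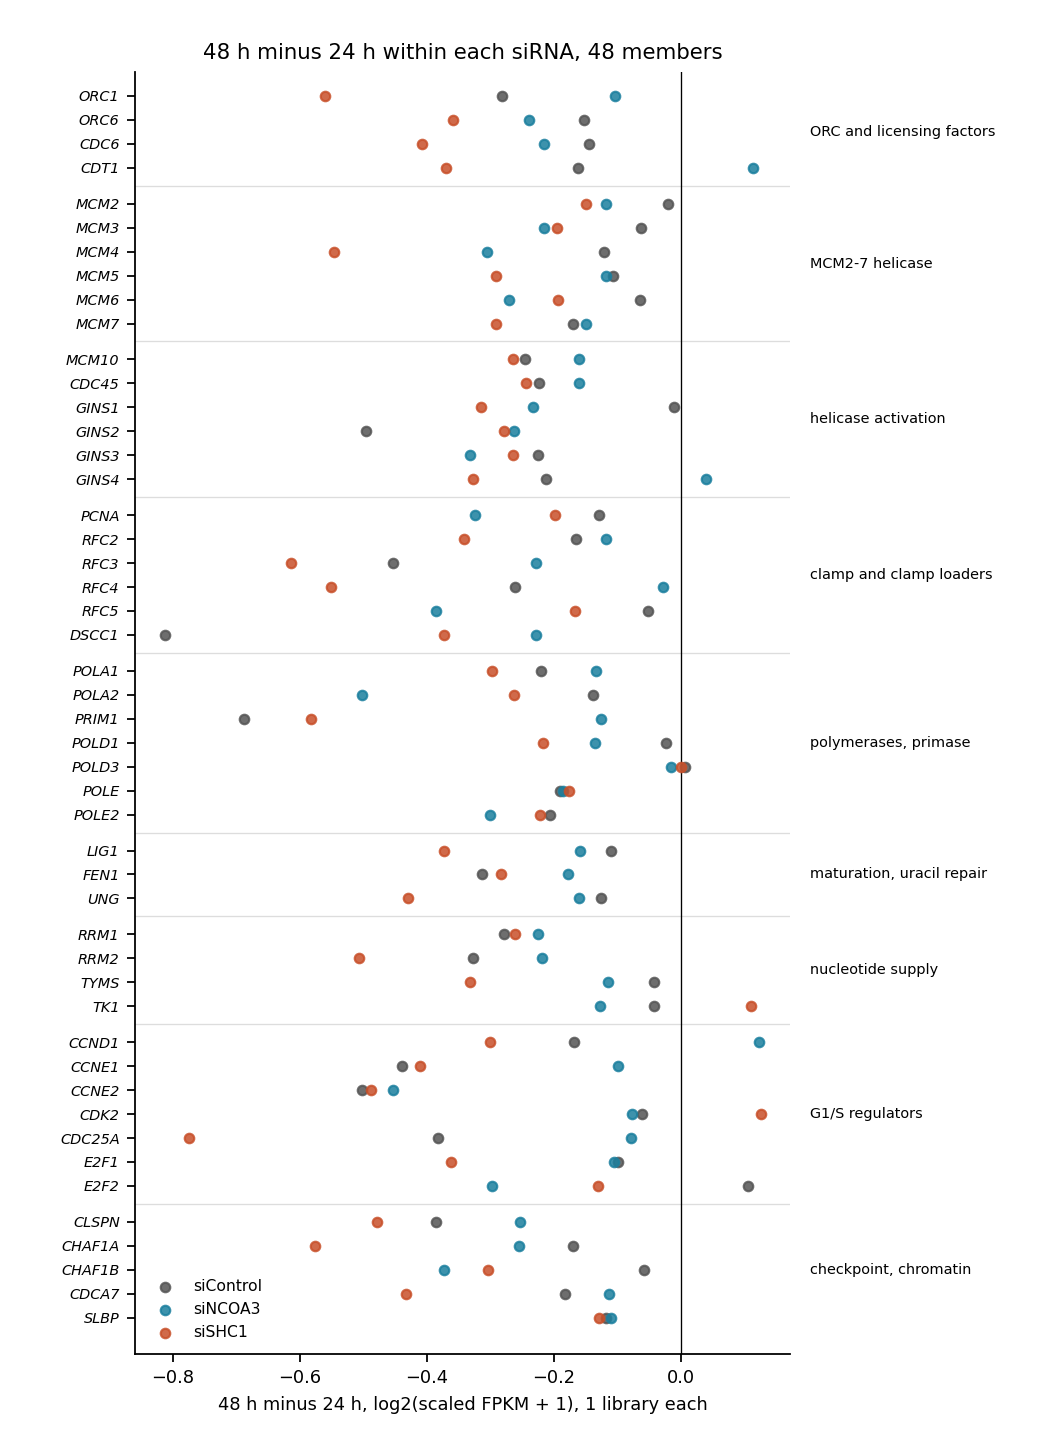
Difference between 48 h and 24 h on the scale of log2(scaled FPKM + 1) for each of the 48 members, 1 point per siRNA, grouped by function. Nearly all points lie left of 0, namely 46 with siControl, 45 with siNCOA3 and 46 with siSHC1, and the siSHC1 points have the lowest median (-0.30).

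By function, the lowest group median between the times was that of the licensing factors, at -0.25, and the highest was that of the MCM2-7 helicase, at -0.17. CCNE2 had the lowest single difference, at -0.48 ± 0.08, and its level at 48 h was 68.0%, 71.3% and 68.9% of that at 24 h with siControl, siNCOA3 and siSHC1. The 3 percentages lay close together although its level differed between the siRNAs. DSCC1 was at -0.47 ± 0.13, PRIM1 at -0.47 ± 0.12 and RFC3 at -0.43 ± 0.10, with wider spread between the siRNAs, DSCC1 at 48 h being at 52.4% of its level at 24 h with siControl and at 83.3% with siNCOA3. CLSPN at -0.37, RRM2 at -0.35, GINS2 at -0.35, MCM4 at -0.32, ORC1 at -0.32 and FEN1 at -0.26 had limma adjusted p-values of 0.281 to 0.306. The exceptions by time were few. Within single siRNAs, E2F2 was higher at 48 h with siControl (0.11), and CDT1, GINS4 and CCND1 with siNCOA3 (0.11, 0.04 and 0.12). With siSHC1, CDK2 and TK1 were higher (0.13 and 0.11). POLD3, an accessory subunit of polymerase delta, differed by 0.0072, -0.016 and -0.00033 between the times with siControl, siNCOA3 and siSHC1, and the fitted differences of CDK2 and TK1 were -0.0042 and -0.02.

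Other genes of the pathway were set beside the members from lists of names, chosen with earlier results of these data known. Of 49 other replication genes 3 fell after siSHC1 and 0 rose, where 3.32% of all tested genes fell and 3.11% rose. These were the origin subunit ORC4 (-0.58 ± 0.09), the histone chaperone ASF1B (-0.66 ± 0.11) and ATAD2 (-0.42 ± 0.09, limma adjusted p = 0.0413). The median of the 49 was -0.13 after siSHC1. Between the times 43 of the 49 were below 0, or 87.8%, with a median of -0.19, against 47.8% of all tested genes. In a list of 50 mitotic genes 3 fell after siSHC1 and 0 rose, against the same 3.32% and 3.11%. They were the transcription factor FOXM1 (-1.15 ± 0.08), the midzone protein PRC1 (-0.81 ± 0.11) and the kinetochore protein CENPF (-0.37 ± 0.08). After siSHC1 40 of the 50 were below 0, with a median of -0.15, much like the members (38 of 48, median -0.16). An unadjusted p under 0.05 (limma) was found for 36% of the mitosis list and 37.5% of the members, against 26.3% of all tested genes. Between the times 36 of the 50 were below 0, or 72%, with a median of -0.09. None of these lists had a gene past the threshold after siNCOA3 or between the times (limma), where 4 and 24 of the replication list (8.16% and 49%) and 2 and 5 of the mitosis list (4% and 10%) had an unadjusted p under 0.05, against 10.5% and 14.2% of all tested genes.

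Larger differences after siSHC1 were found among genes listed here as G1/S regulators outside the set. Of 26 that were tested out of 30, 6 fell and 3 rose, against the 3.32% and 3.11% of all tested genes. This list too was chosen with earlier results of these data known, so its counts describe the listed genes and are no test of G1/S regulators. CDC25B, a phosphatase of the CDC25 family, was at 48.6 and 53.4 FPKM with siControl and at 21.9 and 24.7 with siSHC1, a fall of -1.13 ± 0.08 (limma adjusted p = 0.00202). The CDK inhibitor CDKN1C (-1.15 ± 0.11), the repressor E2F8 (-0.84 ± 0.10), SKP2, the ubiquitin ligase subunit that marks CDKN1B for degradation (-0.75 ± 0.09), the pocket protein partner E2F4 (-0.72 ± 0.10) and TFDP1, the dimer partner of E2F proteins (-0.54 ± 0.07), fell as well. Cyclin D3 (CCND3) rose from 111 and 116 FPKM with siControl to 201 and 180.2 with siSHC1, by 0.70 ± 0.07 (limma adjusted p = 0.00590), and the CDK inhibitors CDKN1A (0.47 ± 0.11) and CDKN2D (0.46 ± 0.10) rose too. The list held activators and inhibitors of the transition in both directions. CDKN2A and CDKN2B were listed at 0 in all 6 libraries. None of the 26 passed after siNCOA3 or between the times (limma), where 2 and 6 (7.69% and 23.1%) had an unadjusted p under 0.05 against 10.5% and 14.2% of all tested genes.

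**Figure D4:**
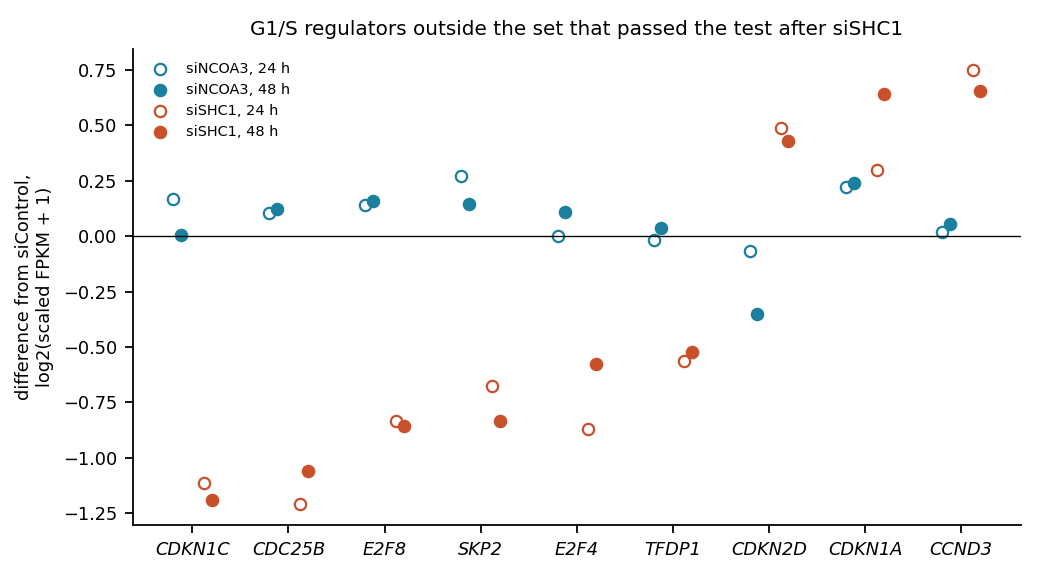
Difference from siControl at the same time, on the scale of log2(scaled FPKM + 1). Shown are the 9 genes listed as G1/S regulators outside the set that passed the test after siSHC1 (limma). Open points are 24 h and filled points 48 h, 1 library each, and the siSHC1 points of CDKN1C, CDC25B, E2F8, SKP2, E2F4 and TFDP1 lie below 0 at both times while those of CDKN2D, CDKN1A and CCND3 lie above.

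Levels across the set spanned E2F2 at a mean of 2.85 FPKM to CCND1 at 226, with a median of 22.1 against 13.1 for all tested genes. Taken as FPKM, which is per length, these levels can be set side by side between genes. Within the helicase ring the means ran from 26.8 FPKM for MCM2 to 98.6 for MCM3, and in the activating group from 6.22 for GINS3 to 19.9 for CDC45. Exons of 17 members overlap a gene on the opposite strand in GENCODE v29, among them TYMS, LIG1, GINS4 and CCNE2 of those called, and whether the counting used strand is not given in the sources used here.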

How the data were processed

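The series holds 1 table with 1 column per library, which was matched to its sample by siRNA and time in the column name. The values were used as deposited by the authors and taken as FPKM, although the table is named for read counts, since they are not whole numbers. Libraries were made with the KAPA Stranded mRNA-Seq kit with 1 µg of RNA as input, per the labels' protocols, and STAR, Cufflinks, DESeq2 and hg19 are named, without roles or versions, in the submitters' processing notes. A count model could not be used on FPKM and was not run.

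FPKM were divided by median-of-ratios factors over the 11042 genes with at least 1 FPKM in all 6 libraries. Genes with at least 1 scaled FPKM in at least 2 libraries were kept (11690), and log2(scaled FPKM + 1) was fitted with limma 3.58.1 (R 4.3.3), using lmFit and robust, trended eBayes and an additive model of siRNA plus time that left 2 residual degrees of freedom. A fitted difference is on that log2 scale, which understates changes of low genes. P-values were two-sided and adjusted by Benjamini-Hochberg over all tested genes, with a threshold of 0.05. Libraries of the same time share the time term, which pairs them across siRNAs, and a fit without it is among the alternatives. Alternatives changed the scaling, filter, pseudocount, moderation, time term and libraries in the fit, or left out each library in turn.

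The members and the other gene lists were chosen with earlier results of these data known. Values in every library are given for members that passed in any comparison and, in each of the 9 groups, for the member with the highest mean FPKM and those with the largest absolute difference in each comparison. TK1 and E2F1 were added after their values were seen. Promoter windows are from RefSeq (GRCh38.p14) and 3′ UTRs from GENCODE v29 (GRCh38), neither being the build of the table, so no coordinates were carried between them. Gene symbols alone joined the tables.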

Additional observations from a re-analysis of the deposited data

Results flagged for a closer look

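DSCC1, which encodes part of the cohesion-linked clamp loader, is listed for a closer look because its siNCOA3 difference from siControl had opposite signs at the 2 times. It was -0.38 at 24 h (7.23 against 8.97 FPKM) and 0.21 at 48 h (5.94 against 5.05 FPKM), on the scale of log2(scaled FPKM + 1). Each value comes from 1 library against 1, members were listed only where both differences were at least 0.2 in size, and the difference between the times was not tested. Groups held 2 or 3 libraries, too few for a check of single outlying libraries.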

How the results depend on the processing

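All values are limma fits, and where a library was left out its group was held by 1 library that is assumed to vary like the others. The 6 members that fell after siSHC1 became 3 without scaling, 10 with equal library totals, 0 with no filter on low values (31.2% of members and 20.0% of all genes at an unadjusted p under 0.05) and 0 with no replicate block, that is without the term that pairs libraries of the same time (22.9% and 20.7%). With each library left out in turn the count was 0 to 5. The 10 members lower with siSHC1 than with siNCOA3 became 0 with no filter (31.2% and 22.4%) and 2 with no replicate block, and 0 to 8 with each library left out in turn. No member passed after siNCOA3 or between the times under any of these alternatives. Unadjusted p-values under 0.05 (limma) were counted in the settings that left out no single library. After siNCOA3 they were found for 2.08% to 12.5% of members, against 7.48% to 11.3% of all tested genes. Between the times they were found for 35.4% to 77.1% of members, against 4.96% to 15% of all tested genes. For single members, 295 values under the other settings kept their direction and side of the threshold and 37 no longer passed, and with a library left out 173 kept both, 53 no longer passed, 1 newly passed (CDC25A) and 1 changed sign. The latter was GINS4 after siNCOA3, at 0.11 over all libraries and -0.0454 without the siNCOA3 library of 48 h. The read totals were not used here, the spread rests on 2 residual degrees of freedom, and with 1 library per siRNA and time a difference between the times in the response to an siRNA could not be tested.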
